A study of Mus musculus with 4 samples.

Results

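In RNA-Seq of female mouse embryonic stem cells (ESCs), 36 genes were near-silent in both libraries from cells without the demethylase inhibitor GSK-J4 and were switched on in both libraries from cells with it. They were chosen by their FPKM, the depth-scaled count of fragments per kilobase of exon that the authors deposited. A gene was taken when it lay below 0.5 FPKM in both DMSO libraries and at 1.5 FPKM or more in both GSK-J4 libraries. Of the 9779 gene names kept, 36 met this rule, which is 0.369% of the 9769 names it was applied to, and 2 further names that pass the thresholds were left out by the rule. All 4 libraries were used to choose the genes, so their levels are a description of these libraries and no test was run on them.

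The cells were of the female LF2 line (strain 129/J), a single ESC line that is kept on mouse embryonic fibroblast feeders and was passaged at least once without feeders. They were treated for 24 hr in 4 conditions with 1 library each. PBS+DMSO cells received both vehicles, AA+DMSO cells received 50 μg/ml L-ascorbic acid (AA, vitamin C), PBS+GSK-J4 cells received 10 μM GSK-J4, and AA+GSK-J4 cells received both agents. There are no replicates, so no value has an error from repeated samples and no difference can be set against one. Levels are given below as pairs, with the library without AA before the library with AA, and positions are those listed in the deposited tables (mm10 per the labels).

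GSK-J4 enters cells and inhibits the JmjC histone demethylases Utx and Jmjd3, which remove methyl groups from lysine 27 of histone H3, and it can also act on other JmjC enzymes such as those that demethylate lysine 4. H3K27me3 is placed by the Polycomb complex PRC2 and marks silent genes, among them many developmental and tissue-specific genes in ESCs, while H3K4me3 marks active promoters. AA is a cofactor that keeps the iron of this class of oxygenases in its active state. Chromatin marks were not analysed here, and the genes below are described by their RNA alone.

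The 36 genes belong to many functional classes. They include enzymes and receptors of lipid mediators, effectors of cell death, genes of the epidermis, metabolic enzymes, cell surface receptors, small GTPases and a pair of transcription factors. Their median level was 0.245 and 0.256 FPKM with DMSO and 2.30 and 2.05 FPKM with GSK-J4. No gene of the group passed 4.46 FPKM, the level of *Fas* in PBS+GSK-J4, so even after the switch these are weakly expressed genes. On the log2 scale of FPKM plus 1, the median ratio of GSK-J4 to DMSO was 1.48 without AA and 1.32 with AA, against -0.17 and -0.16 over all genes with at least 1 FPKM in either library. The sign of the values over all genes turned with the scaling of the libraries. They were 0.08 and 0.07 after upper-quartile scaling, 0.17 and 0.14 after scaling to the same total and 0.04 and 0.02 after scaling to a median ratio of 1, and the values of the 36 genes were higher under each of these scalings. At least 2-fold higher on this scale were 35 of the 36 genes without AA and 31 of 36 with AA. Among all genes, 453 of 9190 (4.93%) were at least 2-fold higher without AA and 375 of 9134 (4.11%) with AA. The rule used these same values, so nothing is read from this comparison. The share of genes that were higher among all those that differed 2-fold was 58.5% without AA and 54.8% with AA, and it moved to 89.3% and 86.4% when the libraries were scaled to the same total.

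**Figure D1:**
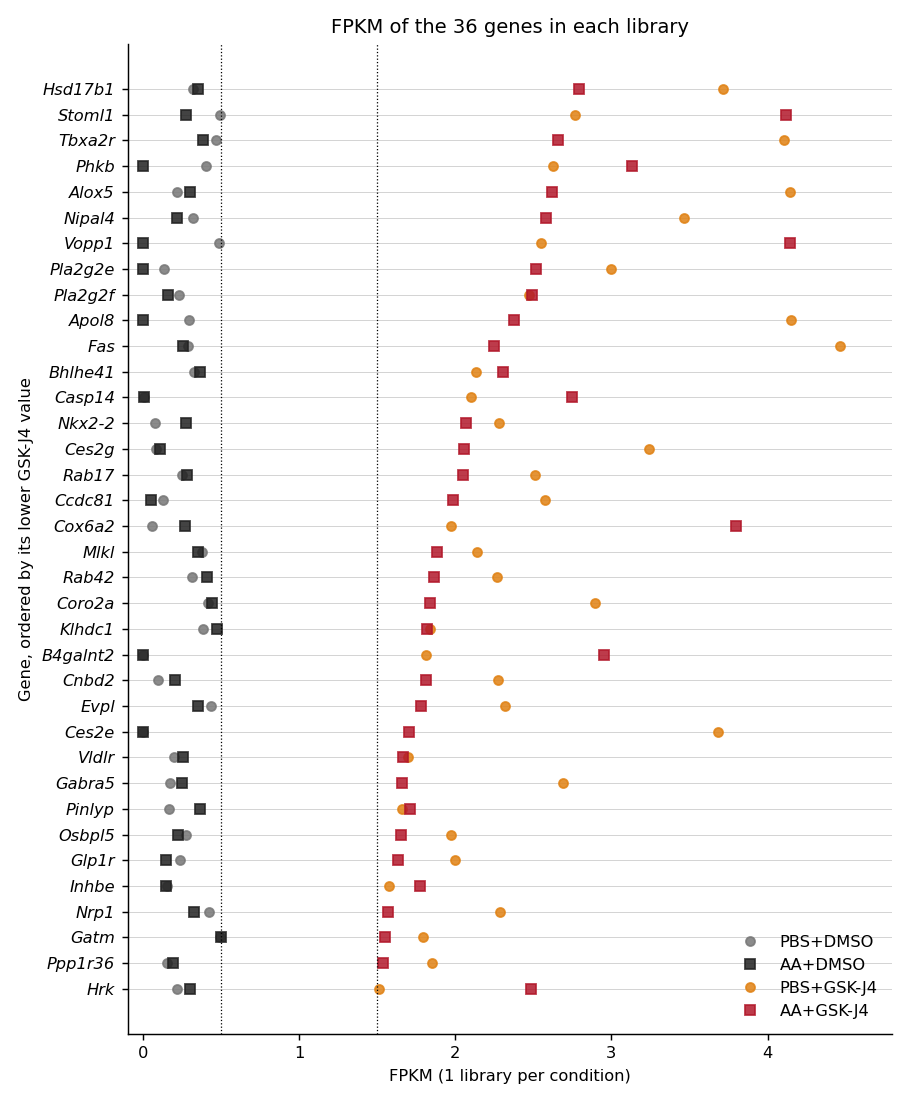
FPKM of each of the 36 genes (rows, ordered by the lower of the 2 GSK-J4 values) in the 4 libraries, with 1 library per condition (circles without AA, squares with AA). The dotted lines mark the thresholds of 0.5 and 1.5 FPKM, between which no value lies by construction, and all GSK-J4 values lie between 1.51 and 4.46 FPKM.

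The genes were grouped by what their products are known to do, after their values had been seen. The largest group, with 8 genes, makes, senses or carries lipids. It spans 1.65 to 4.15 FPKM with GSK-J4, and its median log2 ratios were 1.65 without AA and 1.44 with AA.

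*Alox5* (chromosome 6, 116410090 to 116461151) encodes 5-lipoxygenase, which begins the synthesis of leukotrienes from arachidonic acid. It was at 0.218 and 0.297 FPKM with DMSO and at 4.14 and 2.62 FPKM with GSK-J4. Its log2 ratios were 2.08 and 1.48, and the value with GSK-J4 was lower with AA than without. *Pla2g4a*, the cytosolic phospholipase that frees arachidonic acid, was not near-silent and went from 1.22 and 1.67 FPKM with DMSO to 5.06 and 4.30 FPKM with GSK-J4. *Alox12* went from 0.207 and 0.335 FPKM to 1.07 and 1.35 FPKM and stayed under the upper threshold, and *Alox5ap*, the partner protein of 5-lipoxygenase, was between 1.57 and 1.92 FPKM in all 4 libraries. *Tbxa2r* (chromosome 10, 81328668 to 81335153), the thromboxane A2 receptor, was at 0.467 and 0.385 FPKM with DMSO and at 4.11 and 2.66 FPKM with GSK-J4.

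*Pla2g2e* and *Pla2g2f* lie close together on chromosome 4 (138878068 to 138883171 and 138750549 to 138757603) and encode secreted phospholipases A2, which release fatty acids from phospholipids. *Pla2g2e* was listed at 0.133 and 9.44e-07 FPKM with DMSO and at 2.997 and 2.52 FPKM with GSK-J4. *Pla2g2f* was at 0.232 and 0.159 FPKM with DMSO and at 2.47 and 2.49 FPKM with GSK-J4, so its GSK-J4 values were alike without and with AA. Of 10 listed genes whose names begin as phospholipase A2 genes, 8 were higher with GSK-J4 in both comparisons, also under each of the 3 scalings. *Pla2g2e* and *Pla2g2f* are higher by the rule itself, and the share of all listed genes higher in both comparisons was not counted. No response of the family is therefore read from this count. *Pla2g5*, the listed gene upstream of *Pla2g2f* on the same strand, was at 1.32 and 1.77 FPKM with DMSO and at 1.83 and 2.69 FPKM with GSK-J4. *Pinlyp* (chromosome 7, 24541664 to 24546048), named as a phospholipase A2 inhibitor, was at 0.167 and 0.367 FPKM with DMSO and at 1.66 and 1.71 FPKM with GSK-J4.

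The remaining genes of this group carry or bind lipids. *Apol8* (chromosome 15, 77747669 to 77756955), of the apolipoprotein L family, was listed at 0.292 and 9.46e-06 FPKM with DMSO and at 4.15 and 2.38 FPKM with GSK-J4. The other listed member of that family, *Apol10b*, was listed at 0 in both DMSO libraries and at 1.56 and 0.638 FPKM with GSK-J4, so only its value without AA passed the upper threshold. *Vldlr* (chromosome 19, 27217406 to 27254191), the very low density lipoprotein receptor, was at 0.195 and 0.256 FPKM with DMSO and at 1.69 and 1.67 FPKM with GSK-J4. *Osbpl5* (chromosome 7, 143688774 to 143741680), which moves lipids at membrane contact sites, was at 0.276 and 0.225 FPKM with DMSO and at 1.97 and 1.65 FPKM with GSK-J4. In both of these genes the GSK-J4 values lay close to the threshold.

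Of the group, 3 genes act in cell death, each in another pathway. *Fas* (chromosome 19, 34290521 to 34327733), the death receptor that binds Fas ligand and a known target of p53, had the highest single value of the 36 genes. It was at 0.288 and 0.256 FPKM with DMSO and at 4.46 and 2.24 FPKM with GSK-J4, and its log2 ratios were 2.08 and 1.37. *Mlkl* (chromosome 8, 111311489 to 111338193), which permeabilises the membrane in necroptosis, was at 0.379 and 0.351 FPKM with DMSO and at 2.14 and 1.88 FPKM with GSK-J4. *Ripk3*, the kinase that activates Mlkl, was at 6.05 FPKM in PBS+DMSO and 6.21 FPKM in PBS+GSK-J4. *Hrk* (chromosome 5, 118170025 to 118189463), a BH3-only protein that opposes Bcl2, was at 0.216 and 0.301 FPKM with DMSO and at 1.51 and 2.49 FPKM with GSK-J4. Its value without AA was the lowest of any of the 36 genes in a GSK-J4 library. Of the 8 listed BH3-only genes, 5 were higher and 3 lower with GSK-J4 in both comparisons on the listed values, and only *Hrk* was near-silent. *Hrk* is higher by the rule itself, and the directions of this family were not followed under the scalings. The share of all listed genes higher in both comparisons was not counted, so nothing is read from this count. The p53-linked genes *Bbc3* and *Pmaip1*, among the 5 that were higher, were expressed at higher levels than *Hrk*. *Bbc3* was at 14.3 FPKM in PBS+DMSO and 29.3 FPKM in PBS+GSK-J4, and *Pmaip1* was at 6.64 and 12.5 FPKM in the same libraries.

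The promoter windows of 4 genes are shown because they hold a site of a stress-linked motif. A window runs from 250 bases before to 50 bases after the RefSeq transcription start (GRCm38.p6), and is printed 5′ to 3′ on the strand of the gene. The capitals mark TGANTCA, the AP-1 site, in *Pla2g2e* and *Fas*, and TGATGNAA or its reverse complement, the core of the C/EBP-ATF response element, in *Hrk* and in *Inhbe*, the activin subunit gene described further on. The windows lie at chr4:138877692-138877991, plus strand (*Pla2g2e*), chr19:34290409-34290708, plus strand (*Fas*), chr5:118169514-118169813, plus strand (*Hrk*) and chr10:127351799-127352098, minus strand (*Inhbe*).
Pla2g2e: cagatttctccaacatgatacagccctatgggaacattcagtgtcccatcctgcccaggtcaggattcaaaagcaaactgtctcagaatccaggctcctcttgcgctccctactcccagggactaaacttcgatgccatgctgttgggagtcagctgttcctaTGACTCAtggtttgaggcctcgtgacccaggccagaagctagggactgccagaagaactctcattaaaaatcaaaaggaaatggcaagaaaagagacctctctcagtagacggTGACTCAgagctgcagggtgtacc
Fas: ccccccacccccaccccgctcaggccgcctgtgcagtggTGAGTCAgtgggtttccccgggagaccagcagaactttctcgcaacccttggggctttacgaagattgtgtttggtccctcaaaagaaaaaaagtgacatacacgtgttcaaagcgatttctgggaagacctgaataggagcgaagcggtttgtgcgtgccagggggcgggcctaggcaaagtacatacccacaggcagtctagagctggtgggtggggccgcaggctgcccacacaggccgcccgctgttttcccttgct
Hrk: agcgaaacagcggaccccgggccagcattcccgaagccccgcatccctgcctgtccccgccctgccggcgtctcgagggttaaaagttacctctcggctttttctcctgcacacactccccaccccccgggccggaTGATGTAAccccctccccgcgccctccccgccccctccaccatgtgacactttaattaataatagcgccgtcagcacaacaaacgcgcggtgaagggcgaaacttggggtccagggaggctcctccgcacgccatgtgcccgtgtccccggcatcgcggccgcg
Inhbe: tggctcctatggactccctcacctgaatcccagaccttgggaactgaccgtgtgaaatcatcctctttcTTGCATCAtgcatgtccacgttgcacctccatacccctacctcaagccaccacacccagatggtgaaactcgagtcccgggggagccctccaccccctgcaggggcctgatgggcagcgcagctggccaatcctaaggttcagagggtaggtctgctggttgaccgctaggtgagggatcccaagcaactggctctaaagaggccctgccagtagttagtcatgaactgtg
Relative to the start, the sites begin at -87 and 27 in *Pla2g2e*, at -211 in *Fas*, at -114 in *Hrk* and at -181 in *Inhbe*, with position 1 as the first transcribed base.

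Both motifs were searched on both strands. The C/EBP-ATF core was found in 2 of the 31 matched promoter windows of the group (6.45%), and in 149 of 7489 windows of all listed genes (1.99%). The AP-1 site was found in 2 windows of the group (6.45%) and in 344 windows of all genes (4.59%). The cAMP response element TGACGTCA was found in none of the 31 windows and in 252 of all windows (3.36%). CCAAT was found in 9 windows of the group (29.0%) and in 39.2% of all windows, and TATAAA in 2 windows (6.45%) and in 6.28% of all. A match to the cAMP response element is not counted as an AP-1 site. A match is a description of letters and not a bound site.

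A further 3 genes belong to the outer layers of the skin. *Casp14* (chromosome 10, 78711967 to 78718412), a caspase of terminal keratinocyte differentiation that is not known as an executioner of apoptosis, was listed at 0.00333 and 0.00332 FPKM with DMSO and at 2.10 and 2.75 FPKM with GSK-J4. *Evpl* (chromosome 11, 116220562 to 116238186), the cornified envelope protein envoplakin, was at 0.436 and 0.351 FPKM with DMSO and at 2.32 and 1.78 FPKM with GSK-J4. Its partner periplakin behaved alike at a lower level. *Ppl* went from 0.494 and 0.496 FPKM to 1.53 and 1.28 FPKM and missed the upper threshold in AA+GSK-J4. *Nipal4* (chromosome 11, 46148529 to 46166353), a membrane protein of the keratinocyte that is mutated in ichthyosis, was at 0.319 and 0.217 FPKM with DMSO and at 3.47 and 2.58 FPKM with GSK-J4. Of the 29 listed genes of epithelium, keratins and junctions, *Evpl* among them, 7 passed 2-fold upward and 1 downward without AA, and 7 upward and 0 downward with AA. Over all genes, 4.93% without AA and 4.11% with AA passed 2-fold upward. The median log2 ratio of that list was 0.47 and 0.35, beside -0.17 and -0.16 over all genes, whose sign turned with the scaling. The list was drawn up with earlier results of these data known, so no response of epithelial genes is read from it.

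Among 7 genes for metabolic enzymes, *Hsd17b1* (chromosome 11, 101078388 to 101081127) stood highest when all 36 genes were ranked by their lower GSK-J4 value. It converts estrone to estradiol and was at 0.320 and 0.352 FPKM with DMSO and at 3.72 and 2.79 FPKM with GSK-J4. The 6 other listed genes of that dehydrogenase family were not in the group. *Hsd17b14*, for example, was at 113 FPKM in PBS+DMSO and 53.4 FPKM in PBS+GSK-J4. The gene *Naglu* ends 739 bases upstream of *Hsd17b1* on the same strand and was itself higher with GSK-J4, at 0.791 and 0.750 FPKM with DMSO and 1.59 and 1.64 FPKM with GSK-J4.

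The carboxylesterases *Ces2e* and *Ces2g*, which hydrolyse ester bonds in lipids and drugs, lie in the same cluster on chromosome 8 (104926222 to 104934662 and 104960895 to 104969513). *Ces2e* was listed at 0 in both DMSO libraries and at 3.68 and 1.70 FPKM with GSK-J4, and on the log2 scale it had the widest gap between the GSK-J4 libraries of any gene of the group. *Ces2g* was at 0.0813 and 0.111 FPKM with DMSO and at 3.24 and 2.06 FPKM with GSK-J4, which is 39.8-fold and 18.6-fold on the listed values. They are the only carboxylesterases listed. Their sequences are related, so reads may have been divided between them, and the separate values are less certain than their sum.

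*Gatm* (chromosome 2, 122594477 to 122611257) begins creatine synthesis and lay nearest to the lower threshold, at 0.495 and 0.498 FPKM with DMSO and 1.79 and 1.55 FPKM with GSK-J4. Its log2 ratios of 0.90 and 0.77 were the smallest of the group. *Phkb* (chromosome 8, 85840992 to 86064229), a regulatory subunit of the kinase that starts glycogen breakdown, was listed at 0.403 and 0 FPKM with DMSO and at 2.62 and 3.13 FPKM with GSK-J4. *Cox6a2* (chromosome 7, 128205588 to 128206500), the heart and skeletal muscle form of a cytochrome c oxidase subunit, was at 0.0538 and 0.271 FPKM with DMSO and at 1.97 and 3.80 FPKM with GSK-J4. The ubiquitous form *Cox6a1* was far more abundant, at 368 FPKM in PBS+DMSO and 342 FPKM in PBS+GSK-J4. *B4galnt2* (chromosome 11, 95863237 to 95914918), a glycosyltransferase of the cell surface, was listed at 5.77e-05 and 0 FPKM with DMSO and at 1.81 and 2.95 FPKM with GSK-J4. In contrast to most of the group, *Phkb*, *Cox6a2* and *B4galnt2* were higher in AA+GSK-J4 than in PBS+GSK-J4.

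*Glp1r* (chromosome 17, 30901824 to 30940679), the receptor for glucagon-like peptide 1, was at 0.239 and 0.145 FPKM with DMSO and at 1.99 and 1.63 FPKM with GSK-J4. *Gabra5* (chromosome 7, 57407722 to 57509743), a subunit of the GABA-A receptor of neurons, was at 0.174 and 0.246 FPKM with DMSO and at 2.69 and 1.66 FPKM with GSK-J4. *Nrp1* (chromosome 8, 128359051 to 128505490), a co-receptor for semaphorins and VEGF, was at 0.419 and 0.327 FPKM with DMSO and at 2.29 and 1.57 FPKM with GSK-J4. For these 3 receptors the value in AA+GSK-J4 lay just above the threshold. The related receptor *Nrp2* was expressed in all libraries, at 8.64 FPKM in PBS+DMSO and 12.1 FPKM in PBS+GSK-J4. *Inhbe* (chromosome 10, 127349012 to 127351895), the secreted activin subunit beta E best known from liver, was at 0.153 and 0.145 FPKM with DMSO and at 1.58 and 1.77 FPKM with GSK-J4.

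The group held 2 transcription factor genes. *Bhlhe41* (chromosome 6, 145861099 to 145865571), a repressor in the circadian clock, was at 0.326 and 0.362 FPKM with DMSO and at 2.13 and 2.31 FPKM with GSK-J4. Its close relative *Bhlhe40* was also higher with GSK-J4 from a higher level, at 7.26 and 5.68 FPKM with DMSO and 12.5 and 10.4 FPKM with GSK-J4. *Nkx2-2* (chromosome 2, 147183095 to 147186042), a homeobox factor of the ventral neural tube and the pancreas, was at 0.0731 and 0.276 FPKM with DMSO and at 2.28 and 2.07 FPKM with GSK-J4. It was the only gene of the group among 34 listed developmental transcription factors. Only 4 of these were near-silent in both DMSO libraries, so nothing is read from that. Of the 25 that reached 1 FPKM in either library without AA, 5 passed 2-fold upward and 6 downward. Over all genes the numbers were 453 upward and 322 downward of 9190. Over that list the median was -0.09 and 0.02 on the log2 scale.

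A set of 5 genes acts in trafficking, on actin or in membranes. The small GTPase gene *Rab17* (chromosome 1, 90958131 to 90969710), known from epithelial transport, was at 0.251 and 0.281 FPKM with DMSO and at 2.51 and 2.05 FPKM with GSK-J4. *Rab42* (chromosome 4, 132300527 to 132303398) was at 0.314 and 0.407 FPKM with DMSO and at 2.27 and 1.86 FPKM with GSK-J4. Of 45 listed Rab genes, 13 were higher in both comparisons and 23 were lower in both, but 27, 30 and 22 were higher and 11, 10 and 13 lower after scaling by the upper quartile, the total and the median ratio, so the balance of the family turned with the scaling. *Coro2a* (chromosome 4, 46536947 to 46601875), an actin-binding coronin, was at 0.414 and 0.439 FPKM with DMSO and at 2.89 and 1.84 FPKM with GSK-J4. *Stoml1* (chromosome 9, 58253191 to 58263219), a stomatin-like membrane protein, was at 0.491 and 0.274 FPKM with DMSO and at 2.76 and 4.12 FPKM with GSK-J4. *Vopp1* (chromosome 6, 57752271 to 57825099), a vesicle protein, was listed at 0.489 and 8.28e-06 FPKM with DMSO and at 2.55 and 4.15 FPKM with GSK-J4. The last 2 genes were the highest of the group in AA+GSK-J4.

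The remaining 4 genes are less well described. *Ccdc81* (chromosome 7, 89866188 to 89903610), a coiled-coil protein of the centrosome and cilium, was at 0.125 and 0.0485 FPKM with DMSO and at 2.57 and 1.99 FPKM with GSK-J4. *Cnbd2* (chromosome 2, 156311779 to 156375685), a cyclic nucleotide-binding protein of sperm, was at 0.0956 and 0.205 FPKM with DMSO and at 2.27 and 1.81 FPKM with GSK-J4. Of 30 listed germ cell and testis genes, only 2 were near-silent in both DMSO libraries and none was in the group, so nothing is read from that absence. Over that list the median log2 ratios were 0.21 and 0.03. *Ppp1r36* (chromosome 12, 76417595 to 76439493), a regulatory subunit of protein phosphatase 1, was at 0.149 and 0.188 FPKM with DMSO and at 1.85 and 1.54 FPKM with GSK-J4. *Klhdc1* (chromosome 12, 69241935 to 69284508), a kelch-domain protein, was at 0.385 and 0.471 FPKM with DMSO and at 1.83 and 1.82 FPKM with GSK-J4.

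The group was also set beside lists and name classes drawn up with earlier results of these data known. Of 26 lists and name classes, 7 held a gene of the group and each held only 1. Of the 36 genes, 29 were in none. The share of all listed genes in these lists was not counted, and the rule took only 0.369% of all names, so nothing is read from these counts. Apart from those named above, the genes so found were *Vldlr* in the list for ATF4 and the integrated stress response and *Fas* in the list of p53 targets. The others were *Inhbe* among secreted signals, *Gabra5* among ion channels and *Ccdc81* among genes of cilia. The stress and p53 lists were themselves higher with GSK-J4. Of 33 listed stress response genes, 19 of 32 that reached 1 FPKM were at least 2-fold higher without AA and 15 with AA, and none was 2-fold lower. For the 20 listed p53 targets the numbers were 8 and 9, with median log2 ratios of 0.87 and 0.92. Over all genes, 4.93% without AA and 4.11% with AA were at least 2-fold higher. Each of these lists holds a gene chosen by the rule. Both were drawn up with earlier results known, so nothing about the group is read from them. The list of lipid and xenobiotic metabolism held no gene of the group, although the largest class named above concerns lipids. None could be in it, since 0 of the 28 listed genes were near-silent in both DMSO libraries. Of its genes, 7 were at least 2-fold higher and 2 lower without AA, and 8 higher and 3 lower with AA. The lists of immune and interferon genes, muscle genes, synaptic genes and cytochrome P450 enzymes held no gene of the group either. They held only 3, 0, 2 and 0 genes near-silent in both DMSO libraries, so nothing is read from that absence.

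The thresholds cut through a continuum. Just outside the lower threshold were *Trp73*, *Rln1* and *Fam124a*. *Trp73*, a relative of p53, was at 0.510 and 0.410 FPKM with DMSO and at 3.07 and 2.51 FPKM with GSK-J4. Just outside the upper threshold were *Orai2*, *Gm648* and *Cbln2*, with AA+GSK-J4 values of 1.496, 1.48 and 1.44 FPKM. Just inside the upper threshold were *Hrk*, *Ppp1r36* and *Gatm*, and just inside the lower threshold were *Gatm*, *Stoml1* and *Vopp1*.

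A small amount added to every gene in the GSK-J4 libraries would also lift near-silent genes over a threshold, so the group was set beside all near-silent genes. There were 380 genes below 0.5 FPKM in both DMSO libraries. The median difference between GSK-J4 and DMSO over these genes was 0.57 FPKM without AA (quartiles 0.18 and 1.02) and 0.45 FPKM with AA (quartiles 0.08 and 0.82). Of the 380 genes, 285 (75%) were higher in both comparisons and 17 were lower in both. Both GSK-J4 values were at least 0.5 FPKM for 217 genes, at least 1 FPKM for 80 and at least 1.5 FPKM for 36 (9.47%), and no gene reached 3 FPKM in both. The median difference of the 36 genes was 2.14 FPKM without AA and 1.87 FPKM with AA, which is 3.75 and 4.12 times the median of all near-silent genes. The 36 genes are part of the 380, and the thresholds alone force a wide difference for each of them. Nothing is therefore read from these multiples.

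**Figure D2:**
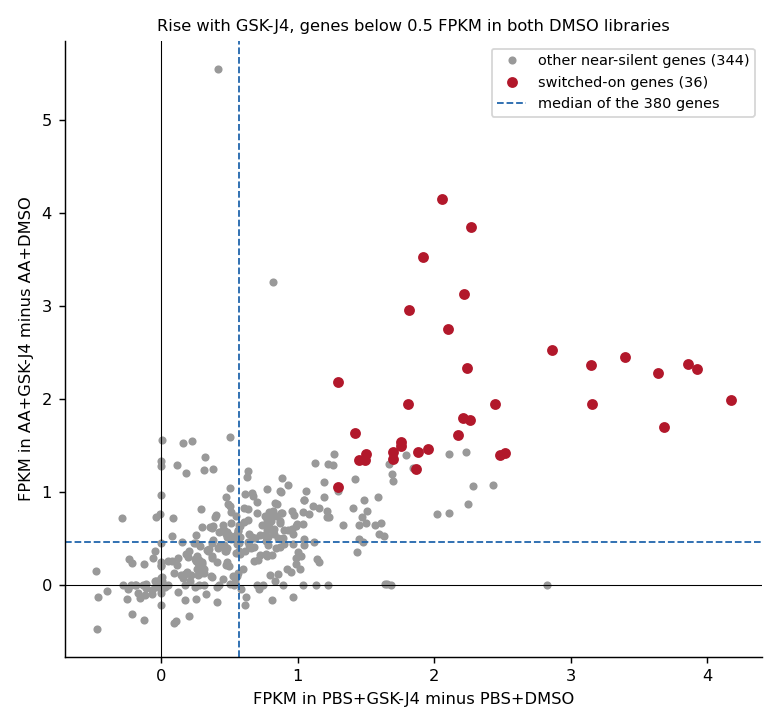
GSK-J4 minus DMSO in FPKM for the 380 genes below 0.5 FPKM in both DMSO libraries, without AA (horizontal axis) and with AA (vertical axis). The 36 switched-on genes (large points) lie up and to the right by construction of the rule. The medians of the 380 genes, 0.57 and 0.45 FPKM (dashed lines), are themselves above 0.

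Of the 380 genes, 40 were below 0.05 FPKM in both GSK-J4 libraries, and 16 of these are listed at exactly 0 in all 4 libraries. Among the 16 are *Nap1l1*, *Clk2* and *Sec24b*, chosen here after their values were seen, which cells use broadly, so a listed 0 in these tables can be a failed estimate and is not read as low expression. To keep the level and the difference apart, genes were binned by the DMSO library that the difference did not use. Without AA the median difference was 0.12 FPKM for 167 genes below 0.05 FPKM in AA+DMSO, 0.64 FPKM for 121 genes from 0.1 to 0.25 FPKM, 0.54 FPKM for 261 genes from 0.25 to 0.5 FPKM and 0.37 FPKM for 592 genes from 0.5 to 1 FPKM. It was 0.12 FPKM again for 1735 genes from 2 to 5 FPKM. With AA the median was 0.0013 FPKM for 131 genes below 0.05 FPKM in PBS+DMSO, 0.47 FPKM for 106 genes from 0.1 to 0.25 FPKM, 0.46 FPKM for 242 genes from 0.25 to 0.5 FPKM and 0.15 FPKM for 1715 genes from 2 to 5 FPKM. Of the genes in the lowest bin, 92 of 167 in AA+DMSO and 72 of 131 in PBS+DMSO are listed at exactly 0 there, so the medians of that bin are not set against those of the others.

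**Figure D3:**
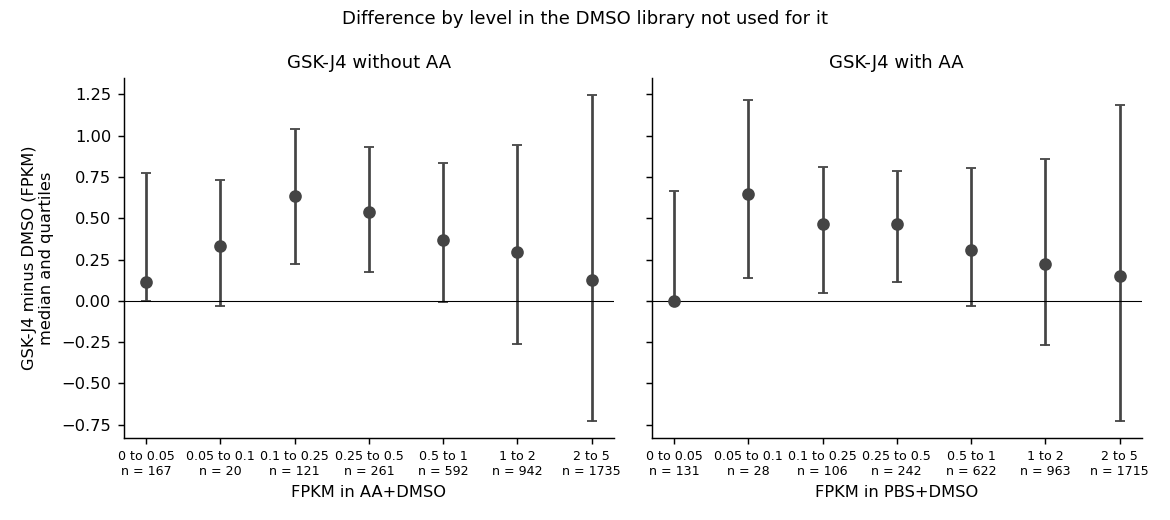
Median (points) and quartiles (bars) of GSK-J4 minus DMSO in FPKM, without AA (left) and with AA (right), for genes binned by FPKM in the DMSO library of the other comparison (n, genes per bin). Without AA the highest median is in the bin of 0.1 to 0.25 FPKM, and with AA in that of 0.05 to 0.1 FPKM. In the lowest bin many genes are listed at exactly 0, so its medians are not set against the others.

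When the median difference of the near-silent genes, 0.57 FPKM without AA and 0.45 FPKM with AA, was taken off each GSK-J4 value, 17 of the 36 genes were still at 1.5 FPKM or more in both libraries. They were *Alox5*, *Apol8*, *Bhlhe41*, *Casp14*, *Ccdc81*, *Ces2g*, *Fas*, *Hsd17b1*, *Nipal4*, *Nkx2-2*, *Phkb*, *Pla2g2e*, *Pla2g2f*, *Rab17*, *Stoml1*, *Tbxa2r* and *Vopp1*. The 19 others, among them *Hrk*, *Mlkl*, *Gatm*, *Inhbe*, *Vldlr*, *Glp1r* and *Ces2e*, lay below it in at least 1 library. *Ces2e* was left at 3.11 and 1.25 FPKM, *Mlkl* at 1.57 and 1.43 FPKM and *Gatm* at 1.22 and 1.10 FPKM.

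The same rule was turned around as a background. Only 6 genes were below 0.5 FPKM in both GSK-J4 libraries and at 1.5 FPKM or more in both DMSO libraries, which is 3.59% of the 167 genes near-silent with GSK-J4. Of the 167 genes, 82 were higher and 16 lower in both DMSO libraries, and their median excess in DMSO was 0.19 FPKM without AA and 0.07 FPKM with AA, so genes picked for low values in one pair of libraries were higher at the median in the other pair in either direction. The 6 genes were *Elavl3*, *Eno3*, *Fastkd3*, *Hesx1*, *Tiam1* and *Wdr25*. Of them, *Elavl3*, *Fastkd3*, *Tiam1* and *Wdr25* are listed under 0.02 FPKM in AA+GSK-J4, *Wdr25* also in PBS+GSK-J4. Such a value can be a failed estimate, and the count was not repeated without these genes. *Hesx1*, a homeobox gene of the early forebrain, was at 1.53 and 3.12 FPKM with DMSO and at 0.418 and 0.357 FPKM with GSK-J4. For AA the counts were 0 genes on (of 132 near-silent with PBS) and 1 gene off (*Slc43a3*, of 182 near-silent with AA). *Slc43a3* is listed at 9.23e-05 FPKM in AA+DMSO and 0.000148 FPKM in AA+GSK-J4, which can be failed estimates too. Between single libraries, 19 of 507 genes (3.75%) below 0.5 FPKM in PBS+DMSO were at 1.5 FPKM or more in AA+DMSO, against 100 (19.7%) in PBS+GSK-J4. Of the 569 genes below 0.5 FPKM in AA+DMSO, 27 (4.75%) were at 1.5 FPKM or more in PBS+DMSO and 90 (15.8%) in AA+GSK-J4. In the other direction, of 266 genes below 0.5 FPKM in PBS+GSK-J4, 26 (9.77%) reached 1.5 FPKM in PBS+DMSO and 17 (6.39%) in AA+GSK-J4. Of 319 genes below 0.5 FPKM in AA+GSK-J4, 32 (10.0%) reached it in AA+DMSO and 21 (6.58%) in PBS+GSK-J4. How the listed genes were picked for the deposited tables is not given in the sources used here. The near-silent genes may be a selected set, and the shares of 75% and 9.47% hold for the listed genes only.

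**Figure D4:**
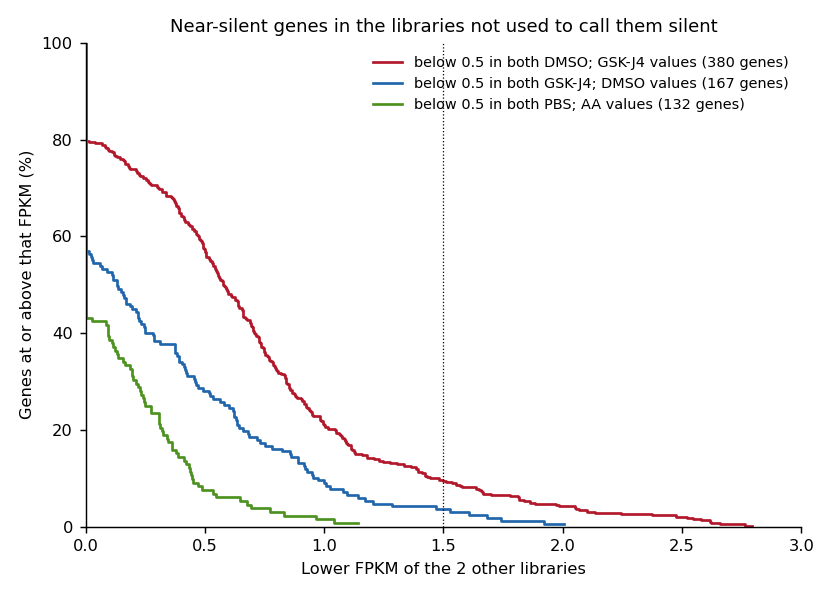
Share of near-silent genes whose lower value in the 2 other libraries is at or above the FPKM on the horizontal axis, for genes near-silent with DMSO (380), with GSK-J4 (167) and with PBS (132). At the dotted line of 1.5 FPKM the shares are 9.47%, 3.59% and 0%.

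Depth is unknown, since the values used here are FPKM and not read numbers. The steps that whole reads leave in weak FPKM values gave a best estimate relative to PBS+DMSO of 0.796 in AA+DMSO, 0.642 in PBS+GSK-J4 and 0.524 in AA+GSK-J4. The next best settings put nearly as many genes on a step (100 against 114, 31 against 36 and 47 against 48 genes), so no order of depth is read from these estimates.

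Several of the DMSO values were listed at or next to 0. Under 0.02 FPKM in at least 1 DMSO library were 7 genes of the group, *Phkb*, *Vopp1*, *Pla2g2e*, *Apol8*, *Casp14*, *B4galnt2* and *Ces2e*. As with the broadly used genes listed at 0, such a value can be a failed estimate, and whether these 7 genes were near-silent in those libraries was not tested. Of the 36 genes, 52.8% have more than 1 coding transcript in GENCODE M21, against 69.3% of the other near-silent genes and 71.9% of all listed genes. Only exons of coding transcripts were compared, and none of the 36 genes shares such sequence with another coding gene on its own strand. On the other strand, the exons of *Cnbd2* overlap *Scand1* and those of *Cox6a2* overlap *Itgad*. Whether the libraries keep strand is not given in the sources used here, so reads of these pairs cannot be told apart. *Scand1* was at 8.48 and 9.29 FPKM with DMSO and at 16.5 and 11.5 FPKM with GSK-J4.

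For 7 of the 36 genes, another coding gene ended within 5000 bases upstream of the start on the same strand. It was *Naglu* for *Hsd17b1*, *Cactin* for *Tbxa2r*, *Myh9* for *Apol8*, *Ces2f* for *Ces2g*, *Tbc1d2* for *Coro2a*, *Phf20* for *Cnbd2* and *Inhbc* for *Inhbe*. *Cactin* and *Phf20* were lower in PBS+GSK-J4 than in PBS+DMSO, at 18.4 against 26.0 and 16.6 against 24.5 FPKM, and *Myh9* was at 49.7 against 55.1 FPKM. *Naglu* and *Tbc1d2* were higher, and *Tbc1d2* went from 2.42 and 3.28 FPKM to 4.28 and 5.03 FPKM. The part of read-through in the levels of the group was not tested.

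The genes were spread over 14 chromosomes, with at most 5 on any of them (chromosomes 7 and 8). None lay on the X chromosome, which held 368 of the 9769 names. How many near-silent genes lie there was not counted, and with so few genes in the group nothing is read from that absence. Their promoters were poorer in CpG than those of most listed genes. The ratio of observed to expected CpG in the promoter window had a median of 0.536 for the 31 matched genes (quartiles 0.300 and 0.798), 0.658 for 245 other near-silent genes and 0.785 for 7489 listed genes. At a ratio of 0.6 or more were 13 of the 31 windows (41.9%), 57.6% of those of the other near-silent genes and 77.3% of all. The windows ranged from 0.0348 in *Tbxa2r* to 0.998 in *Coro2a*. Among the genes shown above, *Hrk* had a ratio of 0.956 and *Inhbe* of 0.246. The promoter of *Nkx2-2*, the homeobox gene, had a ratio of 0.791.

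**Figure D5:**
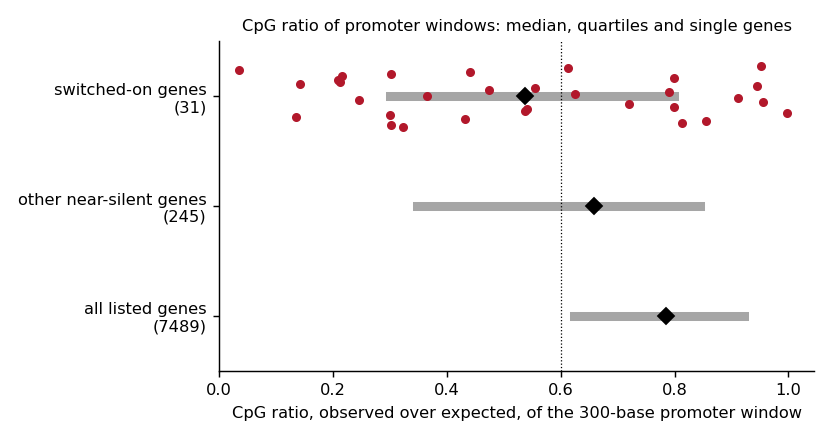
Ratio of observed to expected CpG in the 300-base promoter window, with the median (diamond) and quartiles (bar) for the switched-on genes, the other near-silent genes and all listed genes, and each switched-on gene as a point. The medians are 0.536, 0.658 and 0.785, and 13 of 31 points lie at or right of the dotted line at 0.6.

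AA moved the group little in DMSO, where the thresholds leave it little room. Of the 36 genes, 17 were higher, 18 lower and 1 equal in AA+DMSO against PBS+DMSO. In GSK-J4 treated cells 11 were higher and 25 lower with AA, and the median log2 ratio was -0.18, against -0.02 over all genes with at least 1 FPKM. The share of all genes lower with AA was not counted. All 380 near-silent genes, the 36 among them, also had a lower median in AA+GSK-J4, at 0.693 FPKM against 0.797 FPKM in PBS+GSK-J4. A lower level with AA is therefore not called particular to the group. The 3 lowest of the 36 genes were *Ces2e*, *Fas* and *Apol8*, with log2 ratios of -0.79, -0.75 and -0.61. The 3 highest were *Cox6a2*, *Vopp1* and *B4galnt2*, with 0.69, 0.54 and 0.49. No replicate shows how far 2 libraries of the same condition would differ. Across the 36 genes the differences with GSK-J4 without and with AA, which share no library, had a Pearson correlation of 0.222 and a Spearman correlation of 0.465, and across all 380 near-silent genes they had 0.637 and 0.652. Without the 36 genes, which were chosen for being high in both GSK-J4 libraries, the 344 others had 0.392 and 0.547. These correlations are across genes, which are not independent replicates, and the thresholds narrow the range within the group.

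The stem cell markers *Pou5f1*, *Sox2*, *Nanog*, *Esrrb*, *Klf4*, *Tdgf1* and *Dppa5a* were between 37.4 and 867 FPKM in all libraries and lower with GSK-J4 in both comparisons, except that *Esrrb* and *Klf4* were mixed after scaling to the same total. Their summed level was 2124 and 1892 FPKM with DMSO and 1311 and 1177 FPKM with GSK-J4. These are 7 of 8 genes chosen as markers. Of 10 feeder fibroblast markers, 3 are listed (*Col1a1*, *Col1a2* and *Thy1*), with a summed level of 8.07 and 7.54 FPKM with DMSO and of 8.85 and 8.43 FPKM with GSK-J4. The 5 listed of 8 trophoblast markers summed to 19.7 and 27.1 FPKM with DMSO and to 23.4 and 26.7 FPKM with GSK-J4. The 3 listed of 10 primitive endoderm markers summed to 9.59 and 7.91 FPKM with DMSO and to 10.8 and 8.27 FPKM with GSK-J4. Of these only *Col4a1* was higher with GSK-J4, from 5.80 and 4.90 to 8.45 and 6.36 FPKM, while *Lama1* went from 2.18 and 1.85 to 1.53 and 1.21 FPKM and *Sox7* from 1.61 and 1.17 to 0.867 and 0.697 FPKM. Of 7 neural markers 3 are listed, and their sum, nearly all of it *Tubb3*, was 97.3 and 105 FPKM with DMSO and 67.0 and 68.9 FPKM with GSK-J4. The 2 listed of 6 markers of the 2-cell-like state summed to 3.47 and 4.18 FPKM and to 6.24 and 4.98 FPKM, and the 2 listed of 6 blood markers, *Cd34* and *Spi1*, to 1.88 and 1.49 FPKM and to 3.60 and 2.29 FPKM. The part of other cell types in the levels of the 36 genes was not tested, and in bulk RNA more cells of a type and more RNA per cell cannot be told apart.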

How the data were processed

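RNA-Seq was performed by the authors on 4 samples of LF2 ESCs, 1 per condition. Single-end reads were freed of duplicates and analysed with TopHat2, Cufflinks2, CummeRbund and Genome Explorer, on mm10 per the labels. The FPKM values that the authors deposited are linear, although the column heads name log10, and are listed for 11033 coding sequence groups under 9936 names in 2 tables. The columns of fold changes, p-values and q-values in these tables are the authors' own and were not used. The scaling between libraries is not given in the sources used here.

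FPKM was summed per gene name, and 157 names with a failed estimate were left out. Log2 ratios were taken of FPKM plus 1, with at least 1 FPKM in either library. With 1 library per condition no test was run. The total counts of the libraries are not given, and relative depth was estimated from whole-read steps, a procedure tested on simulated data. The genes, lists, classes and thresholds were chosen with earlier results of these data known. Genes were named by a rule: the highest by their lower GSK-J4 value, up to 2 per list, those at 0 with DMSO, the 3 most different between the GSK-J4 libraries in each direction and the 3 nearest to each threshold on either side. All 36 genes are reported, and relatives and neighbours of them were chosen after their values were seen.

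Gene models were taken from GENCODE M21 and promoter windows from RefSeq (GRCm38.p6), where 31 of the 36 genes matched. Protein sequences were not analysed here. Alternatives were 3 scalings, other thresholds, pseudocounts and filters, values per coding sequence group, and genes with a failed estimate. Calculations were run in Python 3.11.15 with pandas 2.3.3 and numpy 2.4.6, and figures were drawn with matplotlib 3.10.9.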

Additional observations from a re-analysis of the deposited data

Results flagged for a closer look

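For 20 of the 36 genes, the difference between AA and PBS had opposite signs in DMSO and in GSK-J4 treated cells, with 13 lower and 7 higher with AA in GSK-J4. Each sign rests on 1 library per condition, and the difference between the conditions was not tested. Some log2 ratios in DMSO lay next to 0, such as -1.6e-05 for *Casp14* and -8.3e-05 for *B4galnt2*. The share of opposite signs over all listed genes was not counted, so nothing is read from this count. *Vopp1* was the only gene whose ratio passed 1.3-fold in both directions, with a log2 ratio for AA of -0.57 in DMSO and 0.54 in GSK-J4. Its AA+DMSO value is listed at 8.28e-06 FPKM, which can be a failed estimate.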

How the results depend on the processing

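The number of switched-on genes followed the thresholds closely. It was 36, and 12 or 133 with a lower threshold of 0.25 or 1 FPKM, and 80 or 0 with an upper threshold of 1 or 3 FPKM. It was 57 after upper-quartile scaling, 63 after scaling to the same total and 17 after the median difference of near-silent genes was taken off, an alternative chosen after seeing the data. All 36 genes were still counted under the first pair of scalings, and 35 of 36 when the median ratio was scaled to 1, where the count was 49. Per coding sequence group it was 44. Leaving out the genes with exon overlap on the other strand gave 34, and leaving out those at 0.02 FPKM or less in a DMSO library gave 29, both chosen after seeing the data.

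The count in the opposite direction was 6, and 2, 25, 15 and 0 under the same 4 thresholds. For AA it was 0, and 6 with a lower threshold of 1 FPKM, 2 with an upper threshold of 1 FPKM, 1 per coding sequence group and 1 with failed estimates kept.

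Of all genes, 453 without AA and 375 with AA were at least 2-fold higher. These counts became 803 and 631 after scaling to the same total, 740 and 659 with a pseudocount of 0.1, 112 and 99 with a pseudocount of 5, 1057 and 919 at 1.5-fold, and 48 and 38 at 4-fold. Of the 36 genes, 0 and 0 remained 2-fold higher with a pseudocount of 5, and 3 and 3 were 4-fold higher.

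The median log2 ratio of the 36 genes without AA, 1.48, was 1.59, 1.62 and 1.64 after scaling by the upper quartile, the total and the median ratio, and 2.89 and 0.50 with pseudocounts of 0.1 and 5. With AA, 1.32 became 1.46, 1.499 and 1.49, and 2.68 and 0.43. The median difference of near-silent genes without AA, 0.57 FPKM, became 0.67, 0.69 and 0.70 FPKM under the scalings, and 0.61 and 0.49 FPKM with lower thresholds of 0.25 and 1 FPKM. With AA, 0.45 FPKM became 0.56, 0.60 and 0.58 FPKM, and 0.42 and 0.41 FPKM. The median log2 ratio for AA in GSK-J4, -0.18, became -0.17, -0.17 and -0.17 under the scalings, and -0.25 and -0.072 with pseudocounts of 0.1 and 5. The median log2 ratio of the 36 genes for AA in DMSO rounded to 0 in every setting and took either sign. Over all genes, the medians for GSK-J4 of -0.17 and -0.16 turned to 0.08 and 0.07, 0.17 and 0.14, and 0.04 and 0.02 under the 3 scalings. The medians of the 36 genes and of the near-silent genes for GSK-J4 kept their sign in all settings run. The libraries carry no replicate numbers, so no fit with a replicate block was made, and a joint fit of GSK-J4 over the libraries without and with AA was not run. The total depth of the libraries is unknown, which limits what can be said of genes below 0.5 FPKM.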
